A study of Mus musculus with 2 samples.

Results

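The T cells of a healthy mouse liver were described here, chosen as the cells of 1 library, WT replicate 1, that carried the genes of the T cell receptor's signalling chains. A cell was taken when Cd3d, Cd3e and Cd3g together had at least 2 UMIs (unique molecular identifiers, each counted as 1 captured RNA molecule), mitochondrial (mt-) genes held at most 20% of its UMIs, the B cell gene Cd79a had at most 1 UMI, and 7 Kupffer cell genes together held under 0.4% of its UMIs. This rule found 187 cells among the 6765 cells of the library within the mitochondrial limit, a share of 2.76% (exact Clopper-Pearson 95% interval 2.39 to 3.18), and 187 of 9703 cells in the series. The members were thus chosen by their measured UMIs of these genes, so the levels of the CD3 genes are a description of the choice. The livers were from C57BL/6 mice 8 weeks of age, labelled WT and healthy, with no treatment named. Per the labels, the tissue was taken apart with enzymes, the cells were collected from a Percoll gradient, and libraries were made with a droplet kit that reads the 3′ ends of RNAs. The labels do not say how many animals gave each sample.

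T cells recognise peptides or other small molecules held by presenting proteins, through a receptor made of an alpha and a beta chain, or in a smaller class a gamma and a delta chain. The CD3 proteins and the kinase Lck carry the signal into the cell, and the co-receptors CD4 and CD8 bind the presenting proteins of class II and class I. The mouse liver is known for many T cells that patrol its sinusoids, among them natural killer T cells, which read lipids with a nearly invariant receptor and carry receptors first named on natural killer (NK) cells.

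WT replicate 1 held 7362 cells and 40645060 UMIs, and WT replicate 2 held 2341 cells and 11867207 UMIs. The T cells held 817720 UMIs, with a median of 3481 per cell (955 to 19809) and a median of 1478 genes. The 6578 other cells of replicate 1 within the mitochondrial limit, of which marker rules placed 3085 as endothelial and 2479 as Kupffer cells, had a median of 4767.5 UMIs. Of the 5 barcodes that both libraries share, 0 were T cells. All T cells came from 1 library, so no comparison has a replicate and none was tested: levels are UMIs of a gene, summed over the cells of a group, per 1000000 UMIs of that group (CPM) with exact Poisson 95% intervals, ratios have exact conditional binomial 95% intervals, and both cover counting error only. A gene was read in a comparison when the mean of its 2 CPM values would give at least 10 UMIs in the smaller group, a count of 0 was set to 3 UMIs, and a gene was counted as higher or lower at 2-fold or more.

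At the edge of the rule, CD3 UMIs ran from 2 to 29 per T cell with a median of 10. The 4 cells with just 2 had Trbc2 at 2027 CPM (1079 to 3465) and Lck, on 4 UMIs, at 624 CPM (170 to 1597). Of the 4, 1 met the rule through Cd3g alone, as described below. The 27 cells with 1 CD3 UMI, just outside, had Trbc2 at 153 CPM, Lck at 72.8 CPM and the hepatocyte gene Alb at 14965 CPM. Alb stood at 2962 CPM (1783 to 4625) in the 4 cells inside. In the 172 T cells with 4 or more CD3 UMIs it was at 419 CPM (375 to 467). The Kupffer limit left out 10 further cells with a median of 9239.5 UMIs. The share of UMIs in the 7 Kupffer genes was at most 0.151% inside and at least 0.830% in those 10, so no cell lay near the 0.4% limit. The limit on Cd79a left out 0 cells.

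Lck, the 1 marker of the label that the rule did not use, had 283 UMIs in 133 of the 187 cells. Its level was 346 CPM (307 to 389), against 4.34 CPM in the other cells. Markers of other cell types were also present. Sinusoidal endothelial markers, a list of 8 genes such as Stab2 and Kdr, held 0.4% or more of the UMIs of 14 T cells, and those 14 held 94.8% of all endothelial marker UMIs in the T cells. The highest share in a T cell was 1.92%, the list's summed level was 2513 CPM in the T cells and 8879 CPM in the other cells, and 110 T cells had 0 UMIs of the list. A further cell reached the limit for stellate and fibroblast markers and another for cholangiocyte markers. These 16 cells had a median of 9949.5 UMIs, against 3389 in the other 171. Hepatocyte markers reached 0.4% in 7 T cells and were found in 178, NK markers reached it in 8 and were found in 95, and monocyte and dendritic cell markers reached it in 4 and were found in 96. This last list stood at 435 CPM in T cells and 72.8 CPM in the other cells, and 145 of its 356 UMIs were of Ccr2, found in 69 T cells. The lists for Kupffer cells (genes outside the rule), B cells, plasmacytoid dendritic cells and neutrophils reached 0.4% in 0 cells. Ms4a1, Igkc, Jchain, Reln, Ly6d, Flt3, Xcr1, Cd209a, Mgl2, S100a9, Retnlg, Csf3r and the NK gene Klra4 were at 0. No doublet caller was run.

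Receptor genes were among those that stood highest against the other cells. Trac, the constant part of the alpha chain, had 511 UMIs in 147 T cells (78.6%, 72.0 to 84.3) and 34 UMIs in 19 of the 6578 other cells. Its level was 625 CPM (572 to 682) in T cells and 0.922 CPM (0.639 to 1.29) in the others, a ratio of 678 (479 to 989). Trbc2 and Trbc1, the 2 alternative constant parts of the beta chain, were found in 175 and 101 T cells, and 95 cells had UMIs of both. Trbc2 stood at 1246 CPM (1171 to 1325) in T cells against 2.09 CPM, a 597-fold ratio (473 to 762), and Trbc1 at 596 CPM (544 to 651) against 1.90 CPM, a 314-fold ratio (244 to 409). A Trac UMI was seen in 1 of 3085 endothelial cells (0.0324%) at a median of 5085 UMIs, against 78.6% of T cells at a median of 3481. Trbc1 and Trbc2 share 41.1% and 44.0% of the 50-base windows of their transcripts, but 0 of 151 windows in the last 200 bases, where a 3′ kit reads. Trac lies at chr14:54220521-54224206 on the plus strand of GRCm38, and the 3 CD3 genes lie together on chr9, Cd3g at 44969572 to 44980431, Cd3d at 44981786 to 44987339 and Cd3e at 44998740 to 45009627.

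Of the 8603 genes read against the other cells, 990 were at least 2-fold higher in T cells (11.5%) and 2418 at least 2-fold lower (28.1%). Median-ratio scaling, which takes 0.21 off all log2 ratios, gave 812 and 2810. All 8 genes of the receptor chain list were higher, with a median log2 ratio of 8.46, and so were 26 of 30 receptor signalling genes, with a median of 6.03, beside -0.22 over all genes read. These lists are close to what the CD3 rule chose, and their counts are read only as a description of the cells found. Cd6 and Cd5, surface proteins that tune receptor signals, were 570-fold (309 to 1168) and 410-fold (213 to 884) higher. The adaptor Lat was 386-fold (254 to 610) and Themis, a signalling protein of thymus development, 331-fold higher (164 to 755). Bcl11b, a transcription factor of T cell commitment, had 198 UMIs in 119 T cells and 21 in the other cells, a 425-fold ratio (271 to 702). Cd40lg, the ligand with which helper T cells signal through CD40, had 113 UMIs in 61 T cells and 4 UMIs in 3 others, a 1274-fold ratio (484 to 4755). The 4 signalling genes within 2-fold were Fyn, Lcp2, Fyb and Vav1, of which Fyb was at 2.13 without the 16 cells with other markers.

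Several groups not tied to the receptor also differed. Among 23 cytoskeleton and motility genes 16 were higher and 0 lower (median log2 ratio 1.70), with the GTPase gene Gimap3 at 755 CPM against 4.01 CPM, a 188-fold ratio (157 to 226), Coro1a, an actin regulator of leukocytes, 12.8-fold higher (11.7 to 13.9), and Tmsb10, a thymosin, 8.81-fold higher (8.47 to 9.15). In the class I presentation list 3 of 11 were higher and 0 lower (median log2 ratio 0.58, beside -0.22 over all genes read, of which 11.5% were higher): H2-Q7 at 6.07-fold (5.64 to 6.53), its regulator Nlrc5 at 4.57-fold and the immunoproteasome subunit Psmb8 at 3.69-fold, while B2m, the shared light chain, was at a ratio of 0.874 (0.837 to 0.912). Immediate early and heat shock genes went the other way: 11 of 19 were lower and 2 higher, with a median log2 ratio of -1.10. Egr1 stood at 176 CPM in T cells and 1341 CPM in the other cells, a ratio of 0.131 (0.111 to 0.155), and Fos at a ratio of 0.174 (0.158 to 0.193). Without the 16 cells with other markers these ratios were 0.0239 for Egr1 and 0.0838 for Fos. Among the low ratios were those of Lpl, H2-Aa and Aif1, which macrophages carry. The rule left out cells with Kupffer genes, so low values of such genes are in part set by it. Lpl had 1 UMI in T cells and 12483 in the others (ratio 0.00361, with 9.14e-05 to 0.0201), H2-Aa, a class II chain, 9 against 44054 (0.00921) and Aif1 2 against 11827 (0.00762).

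Genes of signals and lineage were also higher in T cells than in the other cells. Of the cytokine and chemokine list 7 of 13 read genes were higher and 2 lower (median log2 ratio 5.53). Ltb, a lymphotoxin chain, had 380 UMIs in 154 T cells and stood 84.4-fold higher (71.0 to 101). Xcl1 had 255 UMIs in 86 cells (87.8-fold, 70.8 to 109) and Ifng 106 in 55 (130 CPM against 1.79 CPM). Ccl4 was not higher, with a ratio of 0.941 (0.821 to 1.07), and of 0.412 without 11 cells, described below, that met the rule through Cd3g alone. Among the transcription factors 9 of 15 were higher and 3 lower. Gata3 was 116-fold higher (78.5 to 176) and Tbx21, the type 1 factor T-bet, had 57 UMIs in 46 cells (80.3-fold, 51.2 to 128). Id3, Zeb2 and Irf8 were lower, Id3 at a ratio of 0.159 (0.136 to 0.184) that was 0.0126 without the 16 cells with other markers. Of the naive and circulating list 7 of 12 were higher and 3 lower, with Il7r 138-fold (112 to 172), Lef1 207-fold (134 to 334) and Tcf7 170-fold higher (114 to 262). Of the NK receptor list 12 of 15 were higher and 3 lower: Cd160 was 207-fold higher (145 to 304) and Klrb1c 92.5-fold (69.9 to 123). The 3 lower were Tyrobp, Fcer1g and Fcgr3, which macrophages also carry, at ratios of 0.160, 0.212 and 0.0328. Without the cells that met the rule through Cd3g alone, Tyrobp was at 0.0480 (0.0328 to 0.0677) and Fcer1g at 0.121 (0.0953 to 0.152).

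**Figure D1:**
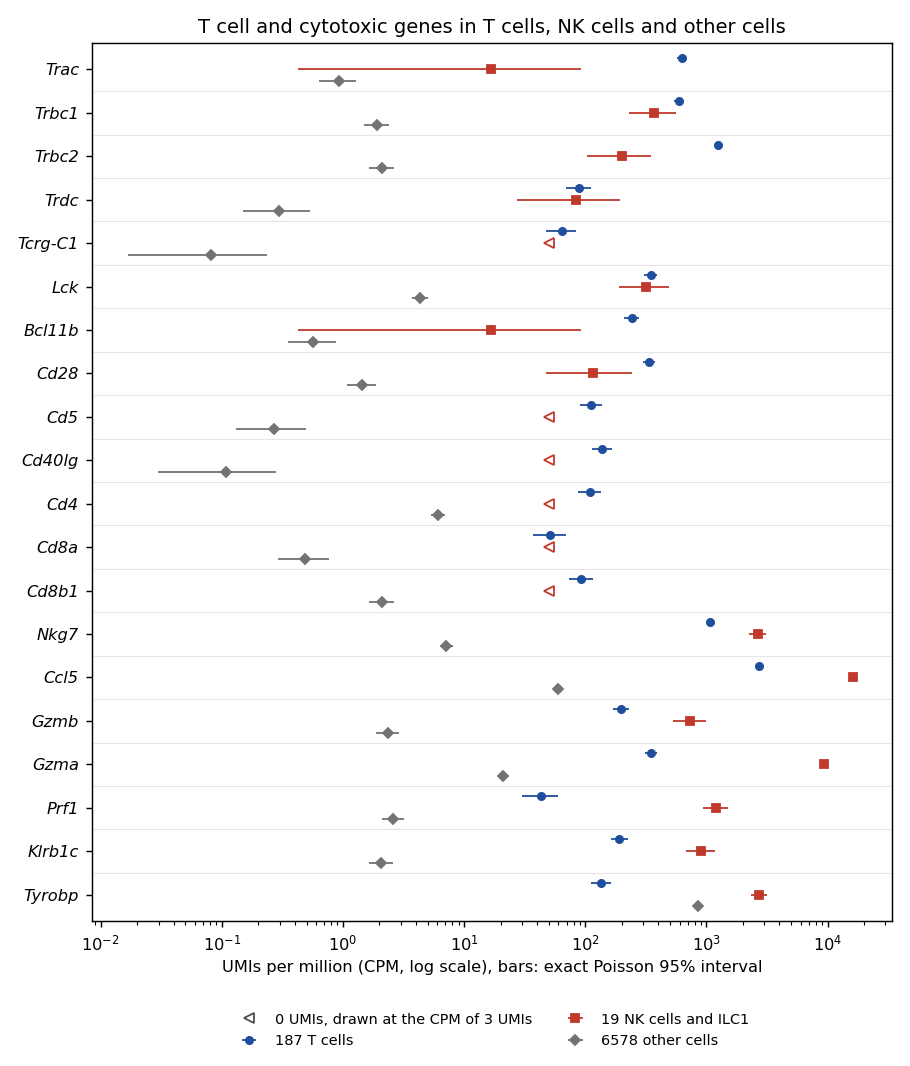
Levels of 20 genes in CPM (log axis) in the 187 T cells, the 19 NK cells and ILC1 and the 6578 other cells of WT replicate 1, with exact Poisson 95% intervals; open triangles mark 0 UMIs, drawn at the level of 3 UMIs. Trac, Bcl11b and Cd40lg stand highest in T cells, Gzma, Prf1 and Tyrobp in NK cells, and the other cells include those 19 NK cells.

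Cd4 had 89 UMIs in 50 T cells (26.7%, 20.5 to 33.7), Cd8a 42 UMIs in 18 (9.63%, 5.81 to 14.8) and Cd8b1 76 UMIs in 21 (11.2%, 7.09 to 16.7). In endothelial cells the shares were 0.227%, 0.0972% and 0.162%, while Cd4 was found in 4.20% of 2479 Kupffer cells at a median of 4039 UMIs. A CD8 gate (any Cd8a or Cd8b1 UMI and no Cd4) held 21 cells (11.2%, 7.09 to 16.7). A CD4 gate (any Cd4 UMI and no Cd8a or Cd8b1) held 49 cells (26.2%, 20.1 to 33.1). Both were found in 1 cell and neither in 116 (62.0%, 54.7 to 69.0). The share with neither rests on depth: with each cell thinned to 1000 UMIs, which 185 cells reach, it was 82.2% and the CD4 gate 10.8%. A cell without a UMI of a co-receptor is therefore not shown to lack it. The median depths of the gates were close, 4071 UMIs in the CD8 gate, 3589 in the CD4 gate and 3374 in cells with neither. Deep cells weighed more in the CD4 gate, where 8 dividing cells, described below, held 33.4% of the UMIs.

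Summed over each gate, the CD8 cells had more of the genes of circulating and unprimed T cells. The CD4 cells had more of those of tissue-resident and dividing ones. Of 1378 genes read, 44 were at least 2-fold higher in the CD8 gate (3.19%) and 158 at least 2-fold lower (11.5%). Median-ratio scaling, which takes 0.25 off all log2 ratios, gave 29 and 249. In the naive and circulating list 4 of 10 read genes were higher and 0 lower. Ccr7, the receptor that guides T cells to lymph nodes, had 68 UMIs in 14 of the 21 CD8 cells and 12 UMIs in 5 of the 49 CD4 cells. Those 14 were all among the 15 CD8 cells with a low share of cytotoxic genes, described below. The other 6 CD8 cells had 0 UMIs of Ccr7, so it was not a trait of the whole gate. The level of Ccr7 was 712 CPM (553 to 903) in the CD8 gate and 43.8 CPM (22.6 to 76.6) in the CD4 gate, a ratio of 16.3 (8.73 to 33.0). Lef1, a transcription factor of naive and early T cells, was 4.47-fold higher (2.64 to 7.71) and S1pr1, the receptor for exit into blood and lymph, 2.35-fold (1.43 to 3.85), and 3.61-fold without the 16 cells with other markers. Runx3, the transcription factor of the CD8 lineage, had 20 UMIs in 12 CD8 cells and 16 in 13 CD4 cells, a 3.58-fold ratio (1.76 to 7.40).

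In the residency and memory list 8 of 11 read genes were lower in the CD8 gate and 0 higher. Cxcr6, a chemokine receptor of liver-resident lymphocytes, had 5 UMIs in 4 CD8 cells and 97 UMIs in 29 CD4 cells, a ratio of 0.148 (0.0469 to 0.357). Rgs1, a brake on chemokine signals, was at 0.295 (0.114 to 0.642). Outside that list, Gata3, the transcription factor of type 2 helper cells, was at 0.176 (0.0350 to 0.544). Cd40lg had 0 UMIs in the CD8 gate, where 3 UMIs would be 31.4 CPM, and 49 UMIs in 23 CD4 cells (179 CPM, 132 to 237). All 6 cell cycle genes read were lower in the CD8 gate, and the CD4 gate held 8 of the 9 dividing cells described below. The receptor chains did not part the gates: Trbc2 stood at 1152 CPM in CD8 cells and 1213 CPM in CD4 cells, with an interval of the ratio of 0.759 to 1.18, and 0 of the 4 chain genes read passed 2-fold. The 2 genes with the highest ratios in the CD8 gate came from 1 cell each: Spp1 had 183 of its 187 T cell UMIs, and Clu 100 of 113, in its top cell, which in both cases was among the 16 with other markers.

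**Figure D2:**
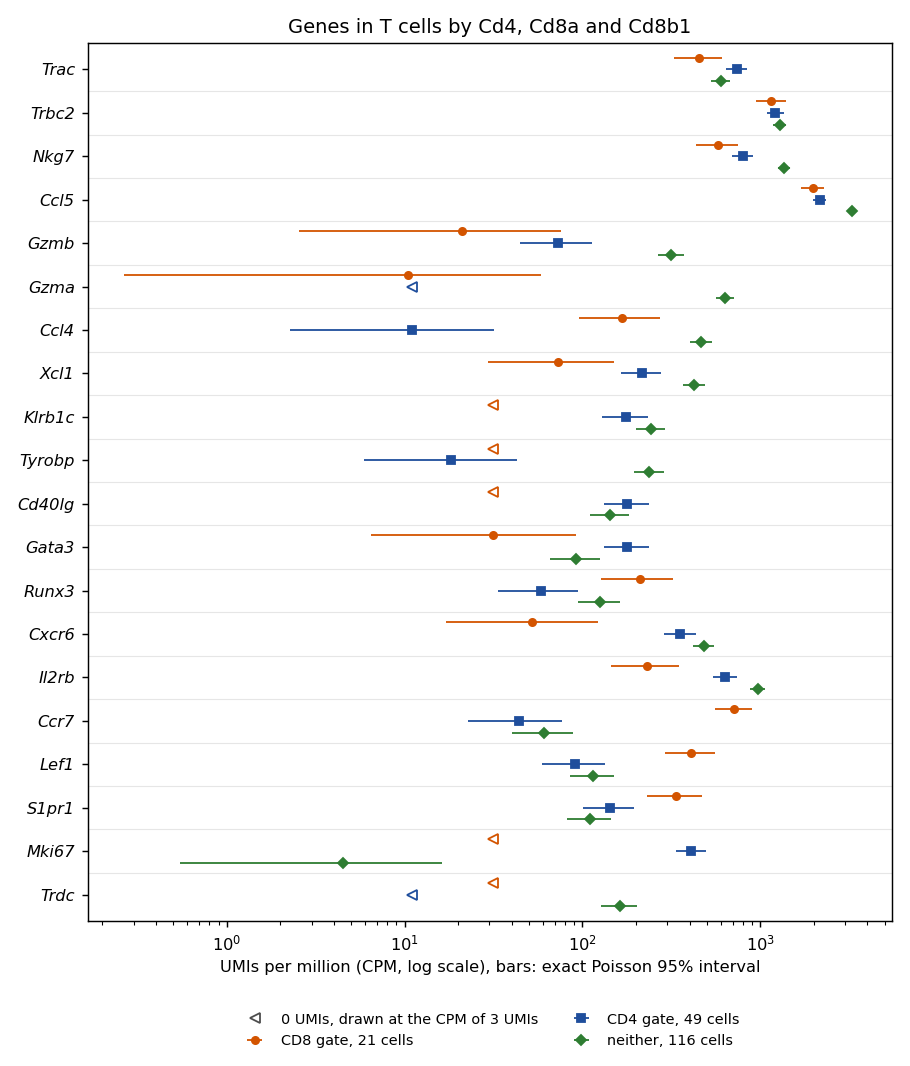
Levels of 20 genes in CPM (log axis) in T cells of the CD8 gate (21 cells), of the CD4 gate (49 cells) and with neither co-receptor (116 cells), with exact Poisson 95% intervals; open triangles mark 0 UMIs, drawn at the level of 3 UMIs. Ccr7, Lef1 and S1pr1 are highest in the CD8 gate, Cxcr6 and Il2rb lowest there, and Gzma is almost wholly in cells with neither, where it had 283 UMIs, or 12 without the cells that met the rule through Cd3g alone.

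Genes of cytotoxic cells were widespread in the T cells, but not all to the same extent. Nkg7, a granule membrane protein, had 880 UMIs in 148 cells (79.1%, 72.6 to 84.7), and the chemokine Ccl5 2236 UMIs in 135 cells (72.2%, 65.2 to 78.5). Gzmb, the granule protease granzyme B, had 162 UMIs in 46 cells (24.6%, 18.6 to 31.4), and Prf1, the pore protein perforin, 35 UMIs in 28 cells (interval of the share 10.2% to 20.9%). Gzma, granzyme A, had 284 UMIs in just 12 cells (6.42%, 3.36 to 10.9), with 57 UMIs in the top cell and a median of 22.5 in the 12. In the endothelial cells these genes were found in 0.0648% (Gzmb, Prf1) to 0.551% (Ccl5), far under the shares in T cells. Gzmb and Nkg7 overlapped: 44 of the 46 Gzmb cells (95.7%) had Nkg7, which is 29.7% of the 148 Nkg7 cells. In the cytotoxic list 10 of 16 read genes were higher in T cells than in the other cells and 3 lower, with a median log2 ratio of 2.24. Nkg7 was 151-fold higher (131 to 174), Ctsw, a lymphocyte cathepsin, 165-fold (118 to 233), and Fasl, the ligand of the death receptor Fas, 136-fold (93.8 to 202). The 3 lower genes were the lysosomal genes Lamp1, Ctsc and Ctsd, at ratios of 0.193 (0.101 without the 16 cells with other markers), 0.0856 and 0.432.

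By gate, Gzma, Gzmb, Nkg7, Ccl5 and Prf1 together held 0.264% of the UMIs of the CD8 cells, 0.306% of the CD4 cells and 0.563% of those with neither. The median cell had 0.0628% in the CD8 gate, 0.344% in the CD4 gate and 0.454% with neither, and single cells ran from 0 to 3.04%, 1.77% and 3.64%, so the gates overlapped. Nkg7 was found in 18 of 21 CD8 cells, 37 of 49 CD4 cells and 93 of 116 with neither, at 576 CPM (434 to 750), 800 CPM (697 to 913) and 1361 CPM (1255 to 1474). Gzmb had 2 UMIs in the CD8 gate, 20 in the CD4 gate (73.1 CPM, 44.6 to 113) and 140 with neither (314 CPM, 265 to 371). Prf1 was at 62.8 CPM (23.1 to 137), 25.6 CPM (10.3 to 52.7) and 49.4 CPM (31.0 to 74.8), with intervals that overlap. Gzma had 1, 0 and 283 UMIs. Of the cells with neither, 10 met the rule through Cd3g alone, as described next, while both gates held 0 such cells. Without those 10 the share of the 5 genes with neither was 0.438%, the median cell 0.402%, Gzma had 12 UMIs and Gzmb 84 (202 CPM, 161 to 250). The CD8 gate fell into 2 sets: 6 of its 21 cells had 0.732% or more of their UMIs in the 5 genes and the other 15 had at most 0.179%.

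Most Gzma UMIs came from a few cells that resembled NK cells in some genes and T cells in others. Of the 187 cells, 11 met the rule through Cd3g alone, with 0 UMIs of Cd3d and Cd3e, and these 11 (5.88%, 2.97 to 10.3) held 271 of the 284 Gzma UMIs (95.4%). They also held 71.2% of the UMIs of Tyrobp, an NK and myeloid adaptor, 58.0% of those of the chemokine Ccl4 and 34.6% of Gzmb, on 33138 of the 817720 UMIs. Tyrobp, Fcer1g and Gzma were each found in 8 of the 11, and Ncr1, an NK receptor, in 6. Of the 19 NK cells, 10 had Trbc1 and 8 had Trbc2. All 11 had Trbc1 or Trbc2, but just 2 had Trac. The 5 cytotoxic genes held 2.07% of their UMIs, against 0.371% in the other 176 T cells and 3.01% in the 19 NK cells and ILC1. Gzma stood at 8178 CPM (7233 to 9212) in the 11, 16.6 CPM (8.82 to 28.3) in the 176 and 9393 CPM in the NK cells. Trac stood at 151 CPM, 645 CPM and 16.7 CPM in the same order, and Tyrobp at 2384 CPM, 40.8 CPM and 2736 CPM. Summed over the 11, Gzma and Tyrobp lay nearer the NK cells than the other T cells, and Trac lay between. Other genes lay nearer the T cells. Trbc2 stood at 1147 CPM (811 to 1574) in the 11, 1246 CPM over all T cells and 200 CPM in the NK cells. Cxcr6 was found in 8 of the 11 and 3 of the 19 NK cells, and Cxcr3 in 7 and 1. The 11 were also not alike. The 8 with Gzma had 15 to 57 UMIs of it, 5 to 16 of Tyrobp and 0 of Trac, and in these genes go against the label. The other 3 had 0 UMIs of Gzma and Tyrobp, and the 2 cells with Trac were among them. The remaining cell had 3 UMIs of Ccr7 and 0 of the 5 cytotoxic genes. Eomes and Klra8, which most NK cells here carried, were at 0 in the 11, where 3 UMIs would be 90.5 CPM.

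**Figure D3:**
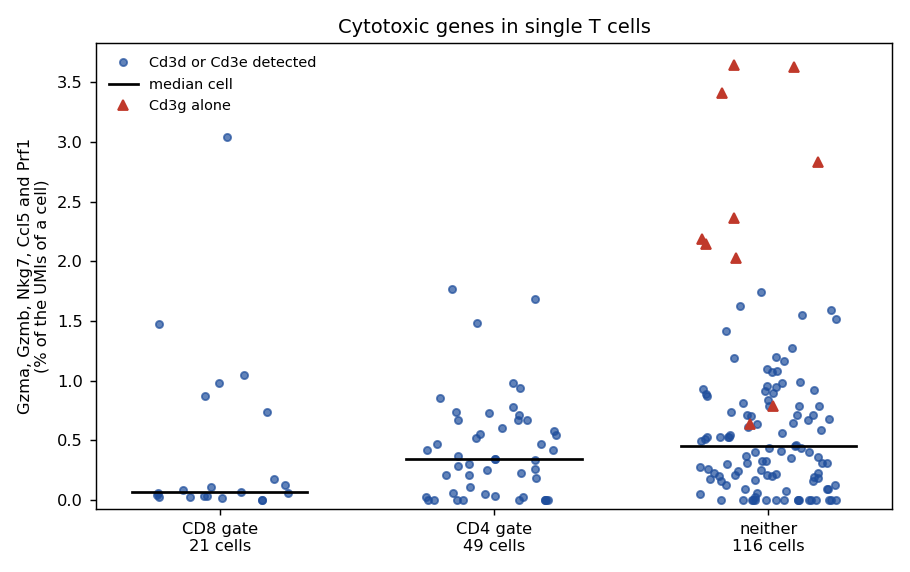
Share of the UMIs of each cell in Gzma, Gzmb, Nkg7, Ccl5 and Prf1, by gate, with the 1 cell that had both co-receptors left out; each point is a cell, bars mark the median cell and triangles are cells that met the rule through Cd3g alone. The 3 highest cells, up to 3.64%, are triangles, while the CD8 gate has a median of 0.0628%.

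The 250 bases before the RefSeq start of Gzma are shown because its UMIs lay in few of the cells, most of them cells that met the rule through Cd3g alone, and those of Cxcr6 because that gene marks a set of T cells compared below. They are from the RefSeq promoter table for GRCm38.p6, Gzma at chr13:113100982-113101231 on the minus strand and Cxcr6 at chr9:123806227-123806476 on the plus strand. Capitals mark the letters TGTGGT or their reverse complement ACCACA, the core that Runx factors such as Runx3 are known to bind.
Gzma: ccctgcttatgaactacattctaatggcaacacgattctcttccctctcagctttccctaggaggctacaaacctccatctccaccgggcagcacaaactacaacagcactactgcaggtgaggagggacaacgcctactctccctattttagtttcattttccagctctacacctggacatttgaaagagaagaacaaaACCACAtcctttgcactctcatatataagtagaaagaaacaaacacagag
Cxcr6: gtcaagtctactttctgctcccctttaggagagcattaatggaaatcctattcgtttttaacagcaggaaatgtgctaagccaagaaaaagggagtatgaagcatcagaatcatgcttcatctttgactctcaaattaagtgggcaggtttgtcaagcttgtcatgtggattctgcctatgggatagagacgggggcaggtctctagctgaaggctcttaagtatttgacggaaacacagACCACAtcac
Each holds the letters once, starting at -50 in Gzma and at -10 in Cxcr6, counted back from -1 at the last base before the start. Of 32851 promoter windows of this length 14.0% hold them on either strand, so a match is a description of the letters and not a site. The letters AGGAAG (Ets) and GTGTGA (T-box), searched on both strands and present in 29.5% and 12.3% of the windows, were not in these 2.

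Against the 19 NK cells and ILC1, the cells most like them, the T cells had lower levels of most genes read of the cytotoxic list. Those 19 cells had 0 CD3 UMIs and at least 2 UMIs of Ncr1 and Klrb1c together, 59941 UMIs in all, and a median of 3021 per cell. Of 828 genes read, 33 were at least 2-fold higher in T cells (3.99%) and 106 at least 2-fold lower (12.8%). Of the cytotoxic list 7 of 10 read genes were lower and 0 higher, and of the NK receptor list 11 of 14 lower and 0 higher. Prf1 had 35 UMIs in 28 of 187 T cells and 72 UMIs in 17 of 19 NK cells, a ratio of 0.0356 (0.0231 to 0.0541). Gzma was at a ratio of 0.0370 (0.0319 to 0.0427), and at 0.00176 without the cells that met the rule through Cd3g alone. Ccl4 was at 0.0444 (0.0375 to 0.0525), and at 0.0195 without those cells. Eomes, the transcription factor of mature NK cells, had 10 UMIs against 29 (ratio 0.0253, 0.0110 to 0.0534). Ly49 receptors marked the difference: Klra8 had 1 UMI in T cells and 31 in NK cells (ratio 0.00236, 5.80e-05 to 0.0142), and Klra4 0 against 26, where its level was at least 118-fold lower in T cells. Other cytotoxic genes differed less: Gzmb was at 0.27 (0.192 to 0.386), and at 0.184 without the cells that met the rule through Cd3g alone, Nkg7 at 0.406 (0.342 to 0.483), Fasl at 0.444 (0.272 to 0.764) and Ctsw at 0.616 (0.386 to 1.03). Il2rb, the receptor chain for interleukins 2 and 15, was at a ratio of 0.605 (0.476 to 0.778) and Ccl5 at 0.170 (0.157 to 0.183).

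Higher in T cells than in NK cells were Trac (37.5-fold, 6.69 to 1482), Thy1, a surface protein of T cells (5.39-fold, 2.08 to 19.9), Maf, a transcription factor of helper and unconventional T cells (5.70-fold, 2.75 to 14.2, and 3.39-fold without the 16 cells with other markers), and Il7r, the receptor for the survival cytokine interleukin 7 (4.35-fold, 1.98 to 11.9). Ly6a had 287 UMIs in 93 T cells and 2 in 1 NK cell (10.5-fold, 2.89 to 87.3). Ptprb, Igfbp7, Dnase1l3 and Aqp1, genes of endothelial cells, had 0 UMIs in the NK cells and were at least 8.63-fold higher in the T cells. Without the 16 cells with other markers the T cells kept 16 of 419 UMIs of Ptprb, 14 of 364 of Igfbp7, 23 of 362 of Dnase1l3 and 11 of 353 of Aqp1, and the lower bounds, 0.336 to 0.703, then show no direction. Trbc1 was within 2-fold (1.62, 1.06 to 2.61), with 22 UMIs in 10 of the 19 NK cells.

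Cxcr6 and Ccr7 were found in nearly separate T cells, and a further 48 cells (25.7%) had a UMI of neither. Cxcr6 had 317 UMIs in 111 cells (59.4%, 51.9 to 66.5), and Ccr7, the receptor that brings T cells into lymph nodes, had 110 UMIs in 29. Just 1 cell had both, which is 0.901% of the first set and 3.45% of the second. With cells thinned to 1000 UMIs the sets held 60 and 18 cells and shared 0. The comparison of 110 Cxcr6 cells with 28 Ccr7 cells, at median depths of 3338.5 and 3813.5 UMIs, was chosen after these values had been seen. The 48 cells with neither gene lay between them in Nkg7, at 796 CPM (681 to 925) against 1501 CPM and 175 CPM, and in S1pr1, at 140 CPM (94.7 to 200.5) against 52.7 CPM and 463 CPM. They were near the Cxcr6 cells in Ccl5, at 3070 CPM against 3453 CPM and 63.1 CPM. Of 2166 genes read, 230 were at least 2-fold higher in the Cxcr6 cells (10.6%) and 105 at least 2-fold lower (4.85%), and under median-ratio scaling, which takes -0.18 off, 302 and 77.

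All 9 NK receptor genes read were higher in the Cxcr6 cells, with a median log2 ratio of 2.85 beside 0.07 over all genes. Cd160 had 137 UMIs in 64 of the 110 Cxcr6 cells and 0 in the 28 others, where 3 UMIs would be 21.0 CPM, and was at least 14.3-fold higher. Klrb1c, the NK1.1 antigen gene of C57BL/6 mice, had 127 UMIs in 60 cells against 0, at least 13.3-fold higher. Among cytokines, Xcl1, a chemokine for cross-presenting dendritic cells, had 211 UMIs in 70 cells against 0 (a bound of 22.1-fold), and Ifng, interferon gamma, 93 in 45 cells against 0 (a bound of 9.72-fold). Il2rb was found in 102 of the 110 cells and 6 of the 28, a 17.2-fold ratio (8.97 to 37.8), and Ccr2 was 35.7-fold (6.29 to 1424) and Cxcr3 21.3-fold higher (3.70 to 854). In the cytotoxic list 9 of 10 read genes were higher and 0 lower. Gzmb had 119 UMIs in 35 cells against 0, a bound of 12.4-fold that was 7.98-fold without the cells that met the rule through Cd3g alone. Nkg7 was found in 103 and 10 cells, 8.57-fold higher (5.75 to 13.3). Gzma was at a ratio of 76.2 (13.6 to 3022) with 243 UMIs against 1, and at 1.29 (0.128 to 63.8) without the cells that met the rule through Cd3g alone.

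Most residency genes other than Cxcr6 followed: 7 of 10 were higher and 1 lower. Cd69, also of this list, did not. It was found in 31 of the 110 Cxcr6 cells, at 196 CPM (157 to 241). In the Ccr7 cells it was found in 12 of 28, at 217 CPM (148 to 308). Bhlhe40, a transcription factor of resident memory cells, was 5.28-fold higher (2.34 to 14.7). The integrin alpha chain Itgal, which helps hold T cells in liver sinusoids, stood at 349 CPM against 63.1 CPM, a 5.54-fold ratio (2.85 to 12.3). Itga1, a collagen-binding chain, was 3.05-fold (1.64 to 6.29) and the memory marker Cd44 6.52-fold higher (2.71 to 20.5). Itgae and Zfp683, genes of resident memory cells, had 6 UMIs each in all 187 cells and could not be read. On the Ccr7 side, 7 of 9 naive and circulating genes were higher there and 0 lower. S1pr1 was found in 24 of the 28 cells, against 9 of the 110, at a ratio of 0.114 (0.0683 to 0.184). Klf2, a transcription factor that drives S1pr1, was found in 25 of 28 and 18 of 110 (ratio 0.162, 0.122 to 0.213). Tcf7, a transcription factor of naive and memory T cells, was at 0.188 (0.116 to 0.302), and Actn1 at 0.0871 (0.0386 to 0.179). Without the 16 cells with other markers the ratios were 0.0209 for S1pr1 (0.00549 to 0.0565), 0.0418 for Klf2 (0.0226 to 0.0721) and 0.0198 for Actn1 (0.00229 to 0.0782). Bhlhe40 was then at 24.4 (4.26 to 974), with 85 UMIs against 1, and Itga1 at least 5.07-fold higher, with 53 against 0. Cd8b1 had 7 UMIs in 2 Cxcr6 cells and 49 UMIs in 14 of the Ccr7 cells, a ratio of 0.0448 (0.0171 to 0.0994). The receptor itself was within 2-fold: Trac was at 642 CPM and 568 CPM, and Trbc2 at 1292 CPM and 1409 CPM.

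**Figure D4:**
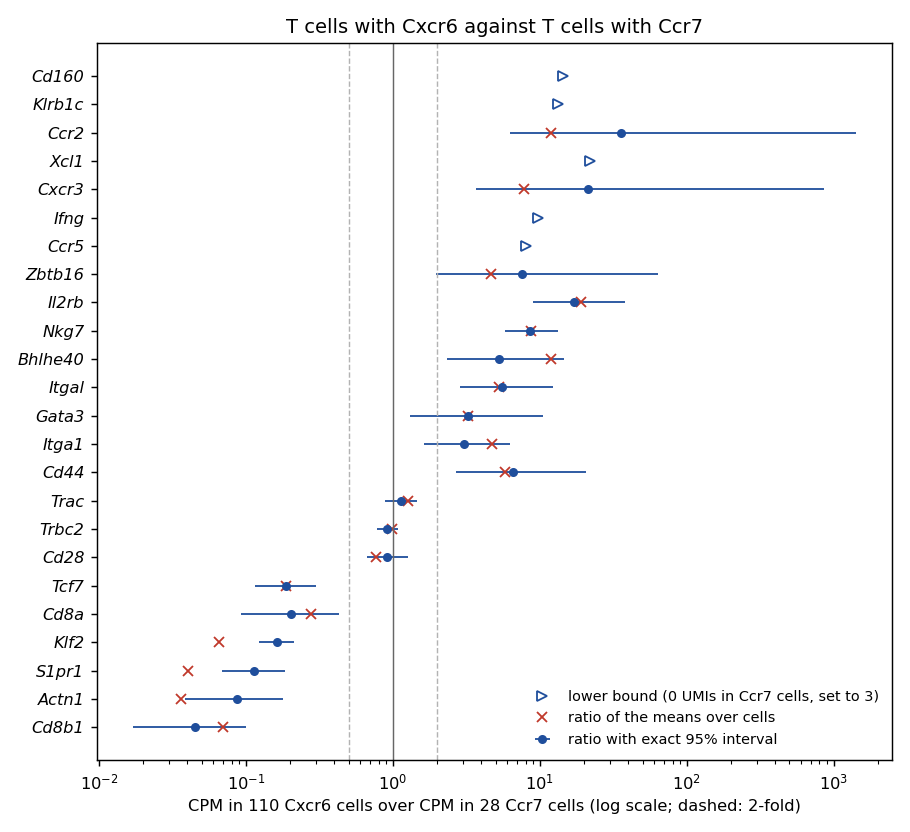
Ratio of the level in 110 T cells with Cxcr6 to that in 28 T cells with Ccr7 (log axis), for 24 genes of the lists, with exact 95% intervals; open triangles mark lower bounds, where the Ccr7 cells had 0 UMIs and 3 were put in their place, crosses give the ratio of the means over cells for the others, and dashed lines mark 2-fold. Genes of NK receptors, cytokines and residency lie to the right, Trac, Trbc2 and Cd28 near 1, and Tcf7, Klf2, S1pr1, Actn1 and both CD8 chains to the left.

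Genes known from natural killer T cells were each found in part of the T cells and overlapped in fewer. Klrb1c was found in 76 T cells (40.6%, 33.5 to 48.1), of which 20 had Cd4 (26.3% of them, 40.0% of the Cd4 cells), 0 had Cd8a or Cd8b1 (which allows up to 4.74%), 60 had Cxcr6 and 0 had Ccr7. Of the 76, 23 had Zbtb16 and 14 Il4, and 5 of the 23 had Il4 as well, while 5 of the 76 had Trdc and 6 met the rule through Cd3g alone. Zbtb16, which encodes PLZF, the transcription factor of innate-like T cells, had 62 UMIs in 41 cells, and in the Cxcr6 comparison 48 UMIs in 33 cells against 2 in 1 cell (7.53-fold, 1.97 to 63.9, and a bound of 3.73-fold, with 39 UMIs against 0, without the 16 cells with other markers). Il4, a cytokine that natural killer T cells release fast, had 43 UMIs in 27 cells, 21 of them with Cxcr6. In the NK cells and ILC1, Zbtb16 and Il4 had 0 UMIs, where 3 UMIs would be 50.0 CPM, against 75.8 CPM (58.1 to 97.2) and 52.6 CPM (38.1 to 70.8) in T cells, so a difference of 2-fold was not detectable at this depth. The invariant alpha chain of these cells joins Trav11 to Traj18. The joining segment is shown because it is 1 part of that joint, and by itself it does not name the type.
Traj18: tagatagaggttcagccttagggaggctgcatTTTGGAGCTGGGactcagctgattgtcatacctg
This is the whole segment of 66 bases at chr14:54200777-54200842 on the plus strand of GRCm38, with capitals on the conserved stretch of joining segments, found as TTTGG, any 4 bases, GG and any 1 base. Traj18 had 3 UMIs in 3 T cells, all with Cxcr6 and 2 with Klrb1c, and Trav11 4 UMIs in 4 other T cells, while the other cells of the library had 0 of both. A 3′ kit reads far from these segments, so their counts give no share of natural killer T cells.

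Gamma delta T cells were a small set. Trdc, the constant part of the delta chain, had 72 UMIs in 9 T cells (4.81%, 2.22 to 8.94), 3 to 13 UMIs in each, and those 9 cells had 0 UMIs of Trac, Cd4, Cd8a and Cd8b1. For Trac, 0 of 9 cells allows a share of up to 33.6%. Beta chain genes were not absent: Trbc2 was found in 8 of the 9, with 22 UMIs, and Trbc1 in 4, with 13 UMIs. Trbc2 stood at 716 CPM (449 to 1085) in the 9, against 1246 CPM over all T cells. Tcrg-C1, a gamma constant gene, was found in 28 T cells and in 5 of the 9, and Tcrg-C2 in 40 and 6, so gamma chain UMIs are not confined to Trdc cells, and the 2 genes share 36.4% of the windows in their last 200 bases, which leaves their split uncertain. Il17a, the cytokine of 1 class of gamma delta cells, had 69 UMIs in 2 T cells, 63 of them in 1 cell, and both were Trdc cells without Trac. Cxcr6 was found in 6 of the 9. The NK cells and ILC1 also had Trdc, with 5 UMIs (83.4 CPM, 27.1 to 195), against 88.0 CPM over all T cells. Foxp3, which marks regulatory T cells, had 5 UMIs in 3 cells, and Pdcd1, an inhibitory receptor, 10 UMIs in 5, and at a median of 3481 UMIs a cell without a UMI is not shown to lack either gene.

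Dividing cells were few, and a Cd4 UMI was found in almost all of them. At 20 UMIs of the 14-gene cell cycle list, 9 cells (4.81%, 2.22 to 8.94) stood apart from the rest: the lowest of them had 22 UMIs, the next cell 12 and the median T cell 2. Of the 9, 8 had Cd4 and 0 had Cd8a or Cd8b1, 4 had Cxcr6 and 5 Nkg7. Their median depth was 8363 UMIs, and the 8 in the CD4 gate held 33.4% of that gate's UMIs. Mki67, a proliferation marker, had 112 UMIs in 10 CD4 cells and 0 UMIs in the CD8 gate, so its level was at least 13.0-fold lower there. Against all other cells of the library 9 of 13 cell cycle genes were higher, among them Birc5 (10.2-fold, 7.82 to 13.2) and Mki67 (6.56-fold, 5.34 to 7.99). Without the 9 cells Birc5 was at a ratio of 0.477 and Mki67 at 0.196.

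A range of the cytotoxic share gave a similar picture from the genes outside the sum. The 62 T cells with the highest share, from 0.669% of UMIs up, were set against the 29 with 0 UMIs of the 5 genes. This is a range and not a type: 21 cells lay within 0.1 percentage points of the upper limit. Of 2277 genes read, 285 were at least 2-fold higher in the 62 (12.5%) and 255 at least 2-fold lower (11.2%), and under median-ratio scaling, which takes -0.16 off, 370 and 196. The 29 held 4 of the dividing cells and the 62 held 0, and without dividing cells the counts were 179 and 105. All 13 NK receptor genes read were higher. Cd160 had 106 UMIs in 43 cells against 0, at least 27.3-fold higher, and Cd7, a surface protein of T and NK cells, 164 UMIs in 48 cells against 0, at least 42.3-fold higher. Xcl1 had 124 UMIs in 40 cells (630 CPM, 524 to 752) against 0, where 3 UMIs would be 19.7 CPM. In the naive list 8 of 10 genes were lower: Ccr7 had 0 UMIs against 50 in 16 cells, and S1pr1 a ratio of 0.0438 (0.00875 to 0.135), or 0.0158 (0.00039 to 0.0923) without the 16 cells with other markers. Tyrobp was at least 25.8-fold higher, with a bound of 6.10 without the cells that met the rule through Cd3g alone, 9 of which were among the 62. The 62 held 44 cells with Cxcr6 and 0 with Ccr7, and the 29 held 3 and 16. By co-receptor the 62 were 12 of the CD4 gate, 6 of the CD8 gate and 44 with neither. Over all 187 T cells these were 49 (26.2%), 21 (11.2%) and 116 (62.0%). Of the 44 with neither, 9 met the rule through Cd3g alone.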

How the data were processed

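The deposited table holds whole-number UMI counts per gene and cell, unnormalized, which the authors made with Cell Ranger 2.1.1, Seurat 3.1 and GRCm38, per the submitters' processing notes. It held 22508 genes and 9703 cells. The endings of the cell names were read as the replicate number, and doublets were not called. The members, lists and rules were chosen with earlier results of these data known. Counts were summed per group (Python 3.11.15, numpy 2.4.6, scipy 1.17.1, pandas 2.3.3), and the comparison was tested on simulated data. Genes of a rule or gate were left out of its own comparison. Other markers means 0.4% or more of a cell's UMIs in the endothelial, stellate and fibroblast or cholangiocyte list. Endothelial cells had 10 or more UMIs of their markers, and Kupffer cells 1% or more of UMIs in theirs. Named were the 10 leading genes of each side whose interval excluded 2-fold (within T cells, 1), up to 4 of each list with the largest change, and the receptor, co-receptor and cytotoxic genes. Further genes were chosen after their values were seen. Alternatives changed the filters, depth, scaling and gates. RefSeq proteins were not used here. Some genes of the lists are not reported here.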

Additional observations from a re-analysis of the deposited data

Results flagged for a closer look

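T cell genes outside the cells described were looked for in the library and cells that the rule sets aside. In WT replicate 2, 6 of 2341 cells (0.256%, exact 95% interval 0.0941 to 0.557) met the rest of the rule. They did so through Cd3e alone: the library had 19 UMIs of Cd3e in 10 cells and 0 UMIs of Cd3d, Cd3g, Trac, Trbc1 and Trbc2. In WT replicate 1, 8 of the 597 cells with over 20% mitochondrial UMIs (1.34%, 0.580 to 2.62) met the rest of the rule. They had 89 UMIs of Trac, Trbc1 and Trbc2 among them. Cells of both kinds were left out of every comparison.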

How the results depend on the processing

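No paired analysis was possible because the 2 samples are of 1 group and 1 of them holds the cells. The limits on Cd3d and Cd3e, other markers and dividing cells, and the Cxcr6 comparison, were chosen after seeing the data. A Kupffer limit of 0.2% found the same number of T cells and of genes in each comparison. Of the alternative values of shares and counts of genes 159 stayed close to those reported and 22, given here, did not. Thinned to 1000 UMIs, the CD8 gate share of T cells was 7.03%, the CD4 gate share of T cells 10.8% and the share with neither 82.2%, and a gate at 2 UMIs gave 11.2% in the CD4 gate and 78.1% with neither, since fewer UMIs then meet the gate. At 20 expected UMIs fewer genes were read: 6 higher and 51 lower than in NK cells, 15 and 53 between the CD8 and CD4 gates, 138 and 98 across the cytotoxic range, and 91 and 44 for Cxcr6. Between the gates, median-ratio scaling gave 29 higher and 249 lower, and a gate at 2 UMIs 72 higher. The cytotoxic range gave 184 higher and 107 lower without the 5% of cells with most UMIs, 68 and 35 thinned, and 179 and 105 without dividing cells.

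Some values crossed 1. Against all other cells, without dividing cells, Birc5 was at 0.477, Mki67 at 0.196, Rrm2 at 0.363 and Top2a at 0.144. Against NK cells, with endothelial markers under 0.4%, without cells with other markers, and with Cd3d or Cd3e required as well, Aqp1 was at 0.382, 0.336 and 0.354, Dnase1l3 at 0.734, 0.703 and 0.708, Plpp3 at 0.529, 0.336 and 0.322, and Ptprb at 0.617, 0.489 and 0.515. The last 2 settings gave 0.733 and 0.772 for Ifitm2 and 0.428 and 0.45 for Igfbp7. Aqp1, Dnase1l3, Ptprb and Igfbp7 had 0 UMIs in the NK cells, set to 3, so their values are lower bounds and under 1 show no direction. Between the gates Fos was at 1.46, 1.67 and 1.67 and Iigp1 at 1.86, 2.13 and 2.13 under the 3 settings, and at 2 UMIs Fos was at 2.30 and Egr1 at 3.0. Across the cytotoxic range Egr1 was at 1.52, 1.52 and 1.57, and thinned, Cd40lg was at 0.503, Ifi47 at 0.880 and Runx3 at 0.251. For Cxcr6, Iigp1 was at 0.956 without the 5% of cells with most UMIs and at 0.965 as a mean of cells. Beyond the cells each setting leaves out, the cause was not tested.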
